A study of Homo sapiens with 12 samples.

Results

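The RNA interference machinery was followed here through 10 genes, AGO1, AGO2, AGO3, AGO4, DICER1, DROSHA, DGCR8, TARBP2, XPO5 and TNRC6A, which were taken by symbol as 10 of the 19225 entries of the gene count table. All 10 passed the filter on low counts. The samples were 12 poly(A) RNA-seq libraries of HN6 and HN30, which are established human cell lines of oral squamous cell carcinoma (OSCC). Each line was transfected with a scrambled siRNA (NC), with siFAT1-1 or with siFAT1-2, and was harvested after 24 h, in 2 biological repeats, which the titles number as times. Both FAT1 siRNAs together are called KD, so that 8 KD libraries stood against 4 NC libraries. Every library carried an siRNA and the transfection reagent, and no untransfected cells were among the libraries analysed here, so a response of these genes to transfection itself could not be measured. The sample titles call the knockdown groups short hairpins, while the descriptions call them siRNAs.

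Small RNA silencing starts in the nucleus, where the Microprocessor, made of the RNase III enzyme DROSHA and its RNA-binding partner DGCR8, cuts hairpins out of primary microRNA transcripts. XPO5 carries the hairpins to the cytoplasm, DICER1 trims them to duplexes with the help of TARBP2, and an Argonaute protein (AGO1 to AGO4) keeps 1 strand as the guide. TNRC6A, also known as GW182, binds Argonautes and recruits the deadenylases and decapping factors that silence the target mRNA. A synthetic siRNA enters this pathway at the Argonaute step, and AGO2 is the family member best known for slicing a perfectly matched target.

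Total counts ran from 26430049 to 47639010 per library, and the number of genes with a count from 14719 to 15350. FAT1 stood at 56.8 and 66.7 CPM (counts scaled to the library total) in the HN6 NC libraries and at 7.61 to 21.4 in the 4 HN6 KD libraries. In HN30 it stood at 13.6 and 14.7 CPM with NC and at 4.86 to 10.8 with KD, so it was lower in all 8 KD libraries than in both NC libraries of the same line. In edgeR's quasi-likelihood test FAT1 was at 0.333 of NC with KD (adjusted p = 0.0404), at 0.251 with siFAT1-1 (adjusted p = 0.00656) and at 0.415 with siFAT1-2 (adjusted p = 0.0236). The squamous and epithelial markers KRT5 (90.6 to 1987 CPM), CDH1 (314 to 1009.9) and EPCAM (190 to 497) were present in every library, whereas the basal keratin KRT14 did not pass 2.42 CPM. Among markers of other cells, PTPRC had 1 count in all, CD3E, PECAM1 and DCN did not pass 0.807 CPM, and COL1A1 ran from 11.1 to 146 CPM.

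Some members carry microRNAs in their own genes, and the mature sequences are shown because those in DGCR8 lie in the very mRNA whose count is reported here. As background, the Microprocessor is known to cut hairpins in the DGCR8 mRNA, which lowers DGCR8. In GRCh38, DGCR8 (ENSG00000128191) lies on the plus strand of chromosome 22 from 20080221 to 20111877, and the start codon of transcript ENST00000351989 begins at 20085964. Exon 2 holds miR-3618 (20085797 to 20085818) before the start codon and, inside the coding sequence, miR-1306-5p (20086072 to 20086093) and miR-1306-3p (20086112 to 20086129). DICER1 (ENSG00000100697, chromosome 14, minus strand, 95086228 to 95158010) holds miR-3173-5p (95137961 to 95137982) and miR-3173-3p (95137923 to 95137944) in an intron. The sequences are from RefSeq (GRCh38.p14), 5′ to 3′, with the seed, bases 2 to 8, in capitals. No seed was shared between any of the 5.
hsa-miR-3618: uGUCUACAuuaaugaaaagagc
hsa-miR-1306-5p: cCACCUCCccugcaaacgucca
hsa-miR-1306-3p: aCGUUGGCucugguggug
hsa-miR-3173-5p: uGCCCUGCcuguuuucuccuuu
hsa-miR-3173-3p: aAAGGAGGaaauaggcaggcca
These microRNAs themselves were not measured in poly(A) libraries of this kind, and the values below are of the host mRNAs.

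All members were detected in all 12 libraries, with 391 to 8758 counts. Per kilobase of annotated exon, the order of the mean levels was XPO5 (15.9 ± 3.75 CPM per kb, SD, n = 12), DROSHA (13.9 ± 3.39), TARBP2 (12.9 ± 4.001), TNRC6A (9.40 ± 4.18), DGCR8 (8.97 ± 2.15), AGO2 (4.29 ± 1.67), AGO1 (3.87 ± 0.878), DICER1 (3.85 ± 1.65), AGO4 (3.30 ± 1.58) and AGO3 (0.969 ± 0.250). Only 2 steps of that order held in every library. DGCR8 was above AGO2 in 12 of 12 libraries, and AGO4 was above AGO3 in 12 of 12. All other neighbours changed places in 4 to 9 libraries, and AGO1 was in fact above DICER1 in only 3. The 5 highest genes, from XPO5 to DGCR8, all lay above all 4 Argonautes in 11 of 12 libraries, and AGO3 was the lowest member in 11 of 12. With the length of the longest coding transcript instead, AGO3 and AGO4 kept the last 2 places, TARBP2 moved from the third place to the first and DICER1 from place 8 to place 6, because the annotated exons of DICER1 add up to 22151 nt and its transcript to 10483 nt. The annotation used for counting was not stated, so levels between genes depend on this length.

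**Figure D1:**
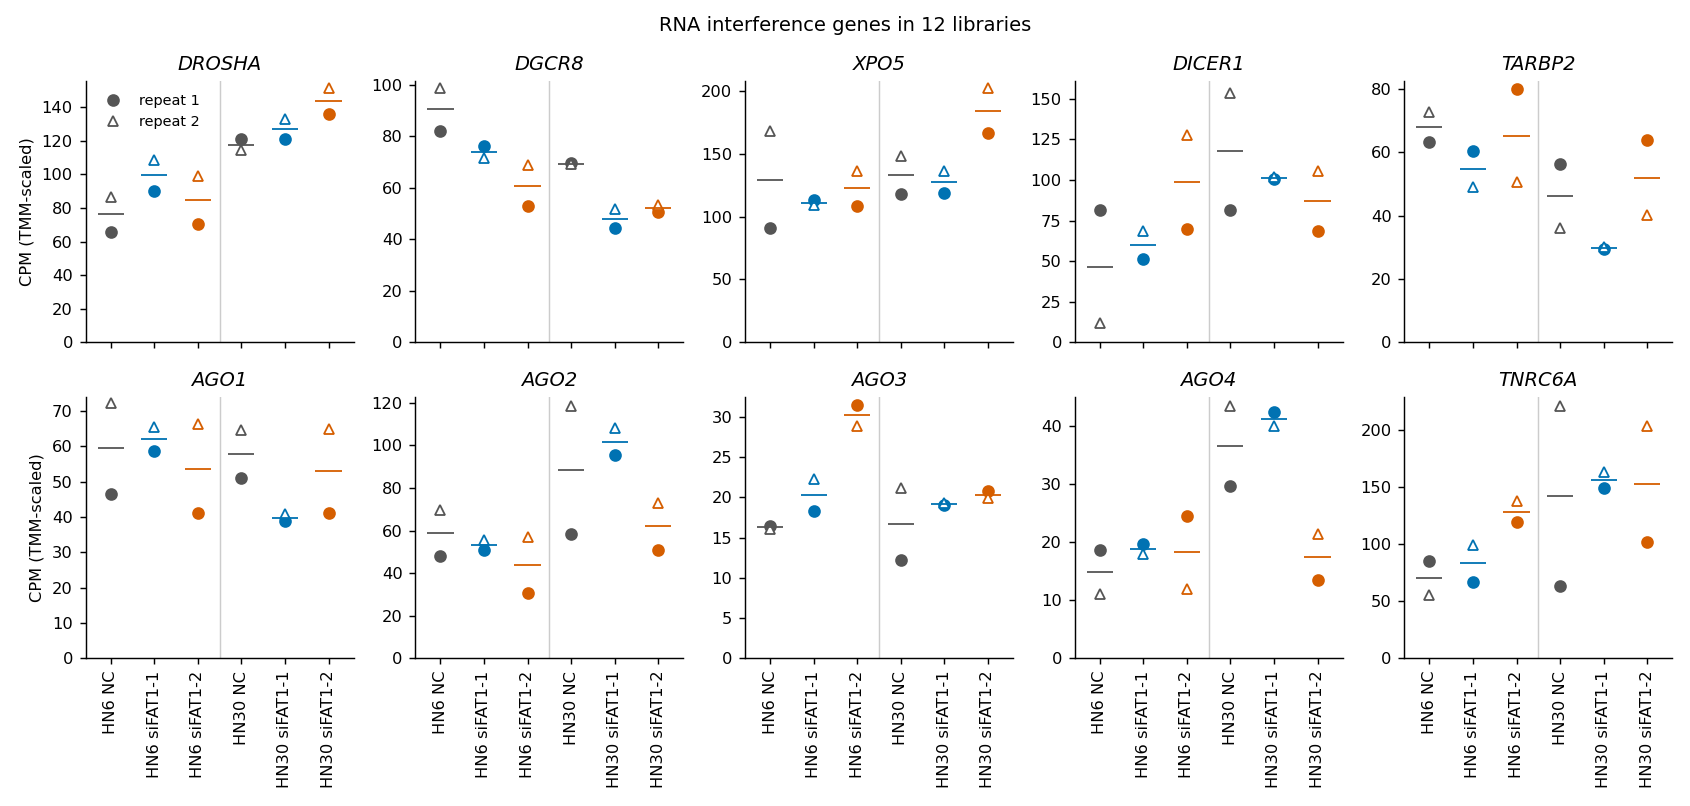
CPM of the 10 genes (vertical axes, each from 0) in the 6 conditions (horizontal axis, HN6 left and HN30 right of the grey line). Filled circles are repeat 1, open triangles repeat 2 and short lines the mean of both. DGCR8 lies lower in the KD libraries than in NC in both lines, DROSHA lies higher in HN30 than in HN6, and DICER1 has a single low library in HN6 NC at 11.98 CPM.

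The first question was whether any of these genes responded to the FAT1 siRNAs. No member passed an adjusted p of 0.05 in edgeR's quasi-likelihood test of KD against NC, where 0.547% of all 13887 genes tested did, and DGCR8 was the only member with an unadjusted p under 0.05 (background 14.5%). With siFAT1-1 against NC 0 of the 10 passed (background 3.25%), and with siFAT1-2 against NC 0 of the 10 passed (background 11.8%). At an unadjusted p under 0.05 these 2 comparisons held 1 member (DGCR8, background 19.0%) and 2 members (DGCR8 and AGO3, background 28.9%). DESeq2 called DGCR8 for KD (background 4.61%), none for siFAT1-1 (background 8.76%), and DGCR8 and AGO3 for siFAT1-2 (background 19.4%). limma-voom called DGCR8 for siFAT1-2 (background 13.8%) and no member for KD (background 0.691%) or siFAT1-1 (background 3.98%). For siFAT1-2 the share of members called by either tool was thus close to that of all genes. The median log2 fold change of the members was 0.01 for KD, 0.03 for siFAT1-1 and 0.13 for siFAT1-2, beside 0.02, -0.0041 and -0.0044 over all genes. The comparisons of the 2 siRNAs with NC share the NC libraries. As these are bulk libraries, a lower level cannot be told apart from fewer cells that express the gene. The summed level of the markers of other cells moved with KD in HN30, from 11.3 and 20.2 CPM with NC to between 29.3 and 46.6 CPM, and in HN6 ran from 60.6 to 64.7 with NC and from 57.4 to 146 with KD. Its part in the values below was not tested.

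The Microprocessor genes showed the most regular values. DGCR8 stood at 82.1 and 98.7 CPM in the HN6 NC libraries, 76.0 and 71.5 after siFAT1-1, 52.8 and 69.0 after siFAT1-2. HN30 had 69.5 and 69.3 CPM of it with NC, 44.4 and 51.8 after siFAT1-1, and 50.7 and 53.3 after siFAT1-2. All 8 KD libraries were therefore below both NC libraries of their line, without overlap. DGCR8 was the only member with this arrangement in both lines, which 5.44% of all genes tested had in one direction or the other. Its log2 fold change was -0.45 ± 0.14 (SE) for KD (95% interval -0.75 to -0.15, adjusted p = 0.162), which is 0.733 of the NC level. For siFAT1-1 the log2 fold change was -0.41 (interval -0.73 to -0.08, adjusted p = 0.167) and for siFAT1-2 it was -0.49 (interval -0.82 to -0.16, adjusted p = 0.0529). The size in each line was -0.43 ± 0.18 in HN6 and -0.47 ± 0.18 in HN30, and the 2 siRNAs differed from each other by 0.08, with an interval of -0.24 to 0.41. Of the DGCR8 exons, 9.57% overlap other annotated genes, among them TRMT2A on the opposite strand, and the use of strand in counting was not stated.

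DROSHA, the catalytic partner (ENSG00000113360, chromosome 5, minus strand, 31400494 to 31532196), stood at 65.9 and 86.5 CPM in HN6 with NC, 90.4 and 109 after siFAT1-1, and 70.3 and 99.1 after siFAT1-2. In HN30 the values were 120.8 and 114 with NC, 120.9 and 133 with siFAT1-1, and 136 and 151 with siFAT1-2. Both siFAT1-1 libraries were above both NC libraries in each line, in HN30 with 120.9 against 120.8 CPM at the nearest, while siFAT1-2 overlapped NC in HN6. For KD the log2 fold change was 0.24 ± 0.15 (interval -0.08 to 0.56, adjusted p = 0.488).

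The ratio of DROSHA to DGCR8 counts within a library does not depend on the library total or its scaling. It was 0.803 and 0.877 in the HN6 NC libraries, 1.19 and 1.52 with siFAT1-1, and 1.33 and 1.44 with siFAT1-2. In HN30 it was 1.74 and 1.65 with NC, 2.73 and 2.56 with siFAT1-1, and 2.68 and 2.84 with siFAT1-2. The KD and NC ranges were apart in both lines, 0.803 to 0.877 against 1.19 to 1.52 in HN6 and 1.65 to 1.74 against 2.56 to 2.84 in HN30. The ranges of the 2 cell lines were apart as well, as were those of 5 of the 45 ratios between members, this one included. The share over all pairs of genes was not computed for the lines, so this count has no background to be read against. Among single genes tested, 26.0% had lines that did not overlap. This pair was singled out after its values were seen, and of the 45 ratios between members 2 were apart in the same direction in both lines, DROSHA to DGCR8 and AGO3 to DGCR8. Over all pairs of tested genes the share was 5.13%, and 2 of 45 was not above it. Over the ratios of any other gene to DGCR8 the share was 14.3%. Both of the 2 ratios hold DGCR8, too few for a comparison with that share.

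**Figure D2:**
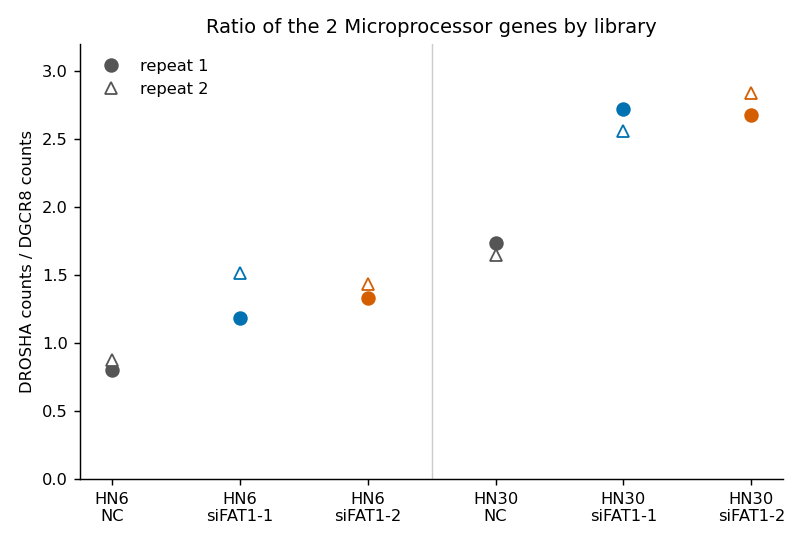
DROSHA counts divided by DGCR8 counts (vertical axis, from 0) in each of the 12 libraries by condition (horizontal axis). Circles are repeat 1 and triangles repeat 2. KD libraries sit between 1.19 and 1.52 in HN6 and between 2.56 and 2.84 in HN30, above the NC libraries of the same line at up to 0.877 and 1.74.

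XPO5, the export receptor for precursor microRNAs (ENSG00000124571, chromosome 6, minus strand, 43522334 to 43576038), stood at 90.6 and 168 CPM with NC in HN6, 113 and 109 with siFAT1-1, and 109 and 136 with siFAT1-2. Its level in HN30 was 118 and 148 with NC, 118 and 136 with siFAT1-1, and 166 and 202 with siFAT1-2. The siFAT1-2 libraries were thus the highest in HN30 but lay within the NC range in HN6. Log2 fold changes were -0.15 ± 0.20 for siFAT1-1 and 0.20 ± 0.20 for siFAT1-2, and that for KD was 0.03 with an interval of -0.39 to 0.46.

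DICER1, the cytoplasmic RNase III enzyme, had the widest spread of the members, with a ratio of 12.8 between its highest and lowest library. It stood at 81.4 and 11.98 CPM in the HN6 NC libraries, 51.2 and 68.8 after siFAT1-1, and 70.0 and 127 after siFAT1-2. The HN30 libraries had 81.3 and 154 with NC, 101 and 102 with siFAT1-1, and 68.3 and 105 with siFAT1-2. The low library, HN6 NC repeat 2, held 425 DICER1 counts. The log2 fold change for KD was 0.19 ± 0.43 (interval -0.74 to 1.12), which covered both directions. In HN6 alone it was 0.72 ± 0.61 (adjusted p = 0.618). That value rested on the NC repeats. Without HN6 NC repeat 1 it was 2.67, with the low repeat as the only HN6 control, and without HN6 NC repeat 2 it was -0.11.

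TARBP2, the double-stranded RNA-binding partner of DICER1 (ENSG00000139546, chromosome 12, plus strand, 53500921 to 53506431), stood at 63.3 and 72.7 CPM with NC in HN6, 60.3 and 48.9 with siFAT1-1, and 79.9 and 50.6 with siFAT1-2. In HN30 the values were 56.2 and 36.2 with NC, 29.6 and 30.001 with siFAT1-1, and 63.8 and 40.1 with siFAT1-2. Both siFAT1-1 libraries were below both NC libraries in each line, and siFAT1-2 overlapped NC in each. TARBP2 had a log2 fold change of -0.47 ± 0.22 for siFAT1-1 (adjusted p = 0.278) and 0.06 ± 0.22 for siFAT1-2. With DROSHA and DGCR8, TARBP2 made 3 of 10 members whose siFAT1-1 and NC libraries did not overlap in the same direction in both lines, beside 20.9% of all genes. An antisense transcript overlaps 13.2% of its annotated exons, and the 2 cannot be told apart without strand.

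The Argonautes AGO4, AGO1 and AGO3 lie side by side, in this order, on the plus strand of chromosome 1 within 264485 nt, with 11917 nt between AGO4 and AGO1 and 185 nt between AGO1 and AGO3. AGO4 (ENSG00000134698) runs from 35808016 to 35857890, AGO1 (ENSG00000092847) from 35869808 to 35930532 and AGO3 (ENSG00000126070) from 35930718 to 36072500. AGO2 (ENSG00000123908) lies apart, on chromosome 8 (minus strand, 140520156 to 140635633). No stretch of 150 nt, the read length, is shared between the transcripts of any 2 Argonautes. The 3 neighbours did not share a pattern. AGO1 stood at 46.6 and 72.4 CPM with NC in HN6, 58.6 and 65.5 with siFAT1-1, and 41.1 and 66.2 with siFAT1-2. Its HN30 values were 50.9 and 64.7 with NC, 38.8 and 40.8 with siFAT1-1, and 41.1 and 64.8 with siFAT1-2. Only siFAT1-1 in HN30 lay apart from NC, on the lower side, and the log2 fold change for KD was -0.18 ± 0.20.

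AGO3 stood at 16.5 and 16.0 CPM with NC in HN6, 18.3 and 22.3 with siFAT1-1, and 31.5 and 28.9 with siFAT1-2. HN30 had 12.2 and 21.1 with NC, 19.0 and 19.3 with siFAT1-1, and 20.7 and 20.0 with siFAT1-2. All KD libraries were above NC in HN6, and in HN30 they lay between the 2 NC libraries. The siFAT1-2 libraries were above the siFAT1-1 libraries in both lines, the only member of which this was true, beside 34.1% of all genes in either direction. AGO3 had a log2 fold change of 0.26 ± 0.21 for siFAT1-1 and 0.60 ± 0.21 for siFAT1-2 (interval 0.14 to 1.05, adjusted p = 0.0828). Without HN30 NC repeat 2, the higher of the 2 HN30 controls, the latter was 0.81 with an adjusted p of 0.0238.

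AGO4 stood at 18.7 and 11.02 CPM with NC in HN6, 19.6 and 17.9 with siFAT1-1, and 24.5 and 12.004 with siFAT1-2. Levels in HN30 were 29.7 and 43.4 with NC, 42.5 and 40.0 with siFAT1-1, and 13.5 and 21.4 with siFAT1-2. In HN30 both siFAT1-2 libraries were below all others of the line, at levels seen in HN6. Over both lines the log2 fold change was 0.24 ± 0.33 for siFAT1-1 and -0.35 ± 0.34 for siFAT1-2.

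AGO2, the slicing Argonaute, stood at 47.9 and 69.9 CPM with NC in HN6, 50.7 and 55.5 with siFAT1-1, and 30.7 and 56.9 with siFAT1-2. The HN30 values were 58.2 and 118 with NC, 95.4 and 108 with siFAT1-1, and 51.0 and 73.0 with siFAT1-2. The NC libraries of HN30 spanned nearly the whole range of that line, so neither siRNA lay apart from them. The log2 fold change was 0.03 ± 0.26 for siFAT1-1 (interval -0.53 to 0.60) and -0.47 ± 0.26 for siFAT1-2 (interval -1.03 to 0.10, adjusted p = 0.256).

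TNRC6A, the scaffold of silencing (ENSG00000090905, chromosome 16, plus strand, 24610209 to 24827632), stood at 84.7 and 55.3 CPM with NC in HN6, 66.8 and 99.1 with siFAT1-1, and 119 and 137 with siFAT1-2. In HN30 it stood at 63.0 and 221 with NC, 149.5 and 163 with siFAT1-1, and 101.5 and 203 with siFAT1-2. The siFAT1-2 libraries lay above NC in HN6, while in HN30 the 2 NC libraries enclosed all 4 KD libraries. The log2 fold change for KD was 0.35 ± 0.32 (interval -0.33 to 1.03).

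**Figure D3:**
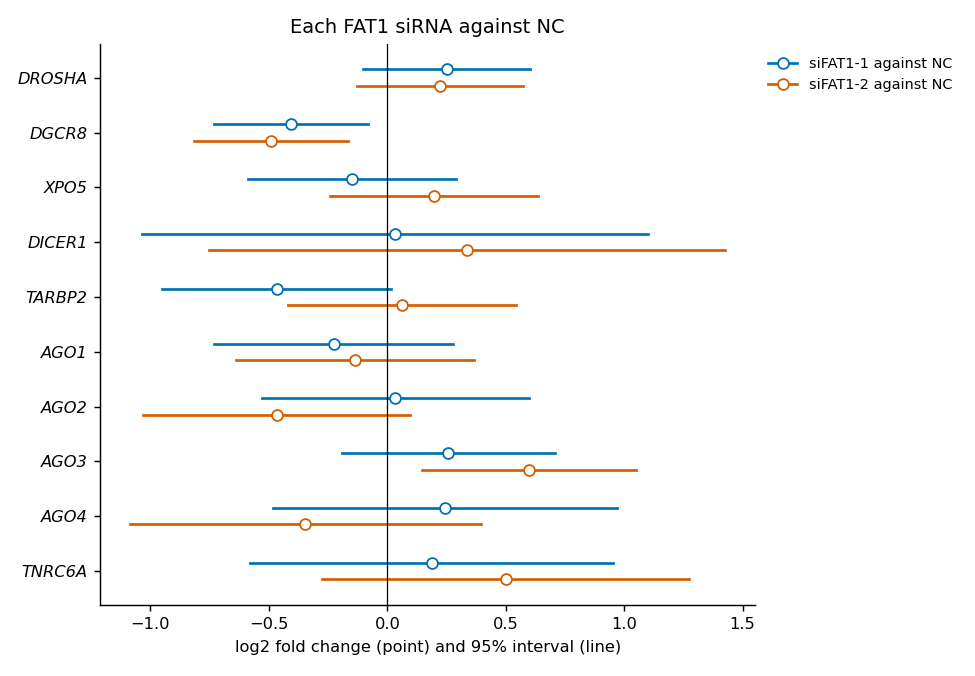
Log2 fold change (horizontal axis) of each gene (vertical axis) for siFAT1-1 (blue) and siFAT1-2 (orange) against NC, with both lines in the fit. Points are fitted values, lines 95% intervals, and open points did not pass an adjusted p of 0.05, which is all 20. The intervals leave 0 out for DGCR8 with both siRNAs and for AGO3 with siFAT1-2, and those of DICER1 are the widest.

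The 2 FAT1 siRNAs were then set against each other. No member was called (0 of 10, background 17.4%), and TARBP2 was the only one with an unadjusted p under 0.05 (background 33.8%). DESeq2 (background 25.9%) and limma-voom (background 19.3%) called none either. TARBP2 was lower with siFAT1-1 than with siFAT1-2 by a log2 difference of -0.53 ± 0.22 (interval -1.01 to -0.04, adjusted p = 0.119). For the Argonautes the difference was 0.50 for AGO2 (interval -0.06 to 1.07), 0.59 for AGO4 (interval -0.15 to 1.33), -0.34 for AGO3 (interval -0.79 to 0.11) and -0.09 for AGO1 (interval -0.60 to 0.42). AGO2 and AGO4 were higher with siFAT1-1 than with siFAT1-2 in all libraries of HN30, and overlapped in HN6. AGO1, AGO3, DROSHA, TARBP2 and XPO5 were lower without overlap in HN30. In HN6, DGCR8 was higher without overlap, and AGO3, DICER1 and TNRC6A were lower. Only AGO3 was apart in the same direction in both lines, beside 34.1% of all genes. The share of all genes apart within a single line is not given here. Leaving out HN6 siFAT1-2 repeat 1 brought AGO4 to an adjusted p of 0.0330, and leaving out repeat 2 of the same condition brought TARBP2 to 0.0466. In these fits 1879 of 13821 and 2454 of 13812 genes passed an adjusted p of 0.05. The summed level of the 7 squamous and epithelial markers moved with the siRNA. It was 4065 to 4589 CPM with siFAT1-1 and 1644 to 2293 with siFAT1-2 in HN6, and 2368 to 2553 and 1043 to 1400.0 in HN30, and its part in these differences was not tested. Of the 7 markers 5 had a log2 difference above 0. EPCAM was lower with siFAT1-1 than with siFAT1-2, at means of 320 against 495 CPM in HN6 and 285 against 354 in HN30. TP63 was lower too, at 115 against 255 CPM in HN30.

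Within single lines, KD against NC called no member in HN6 (background 0.00720%) or in HN30 (background 0.0576%). In edgeR, 2 members in HN6 (AGO3, DGCR8) and 1 in HN30 (DGCR8) had an unadjusted p under 0.05 (background 14.1% and 14.2%), and DESeq2 (background 3.28% in HN6 and 3.94% in HN30) and limma-voom (background 0.0432% and 0.0576%) called none in either line. The difference in response between the lines called no member and no gene at all in edgeR (background 0.00%), and 0 members had an unadjusted p under 0.05. DESeq2 called 2 genes (background 0.0144%) and limma-voom 0 (background 0.00%), no member among them. The largest fitted difference was that of DICER1, 1.05 ± 0.84, which again turned on HN6 NC repeat 2. Without HN6 NC repeat 1, with repeat 2 as the only HN6 control, it was 3.001. That of DGCR8 was 0.04 with an interval of -0.53 to 0.61.

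The clearest differences were between the cell lines. Of the 10 members 6 passed an adjusted p of 0.05 in the comparison of HN6 with HN30 (background 56.9%), a share close to that of all genes. Lower in HN6 were 4, AGO2, AGO4, DROSHA and TNRC6A (background 28.2%), and higher were 2, DGCR8 and TARBP2 (background 28.8%). The partners of the Microprocessor thus differed in opposite directions.

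DROSHA ran from 65.9 to 109 CPM over the 6 HN6 libraries (median 88.5) and from 114 to 151 over the 6 HN30 libraries (median 127), and was the only member whose lines did not overlap, beside 26.0% of all genes. Its log2 fold change was -0.58 ± 0.13 (adjusted p = 0.00275), 0.670 of the HN30 level. DGCR8 was higher in HN6 by 0.41 ± 0.12 (adjusted p = 0.0129), from 52.8 to 98.7 CPM against 44.4 to 69.5, and TARBP2 by 0.59 ± 0.18 (adjusted p = 0.0156), from 48.9 to 79.9 CPM against 29.6 to 63.8.

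Among the Argonautes, AGO4 fell by 0.80 (log2, SE 0.28, adjusted p = 0.0285) in HN6, with 11.02 to 24.5 CPM against 13.5 to 43.4. AGO2 was at a log2 fold change of -0.68 ± 0.21 (adjusted p = 0.0169), with 30.7 to 69.9 CPM against 51.0 to 118. AGO1 (0.23 ± 0.19, interval -0.18 to 0.65) and AGO3 (0.21 ± 0.17, interval -0.16 to 0.57) did not pass. As a share of the 4 Argonautes per kilobase of exon, AGO1 made up 30.3 to 43.7% in HN6 (median 39.2%) and 17.9 to 35.4% in HN30 (median 27.4%), and AGO2 20.1 to 37.4% (median 30.7%) and 30.9 to 42.6% (median 37.5%). AGO3 was the smallest part in both lines, with 6.41 to 15.4% and 4.87 to 10.95%. These shares overlapped between the lines and were not tested.

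TNRC6A was at -0.73 ± 0.29 in HN6 (adjusted p = 0.0489), the weakest of the 6 calls, and the call was lost with limma-voom (adjusted p = 0.0842) and with DESeq2's size factors (adjusted p = 0.0537). DICER1 (-0.64 ± 0.41, interval -1.53 to 0.26) and XPO5 (-0.28 ± 0.17, interval -0.64 to 0.08) did not pass. With the 4 NC libraries alone no member was called, where 11.4% of all genes were, with log2 fold changes of -0.64 for DROSHA and 0.36 for DGCR8, in the same direction as before. The count of calls was 3 without HN30 NC repeat 2 (DROSHA, DGCR8 and TARBP2) and 3 without HN6 siFAT1-1 repeat 1 (AGO2, DROSHA and DGCR8), so DROSHA and DGCR8 were the calls that did not turn on a single library. The summed level of the markers of other cells, nearly all of it COL1A1, was 57.4 to 146 CPM in HN6 and 11.3 to 46.6 in HN30, and its part in these differences was not tested.

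**Figure D4:**
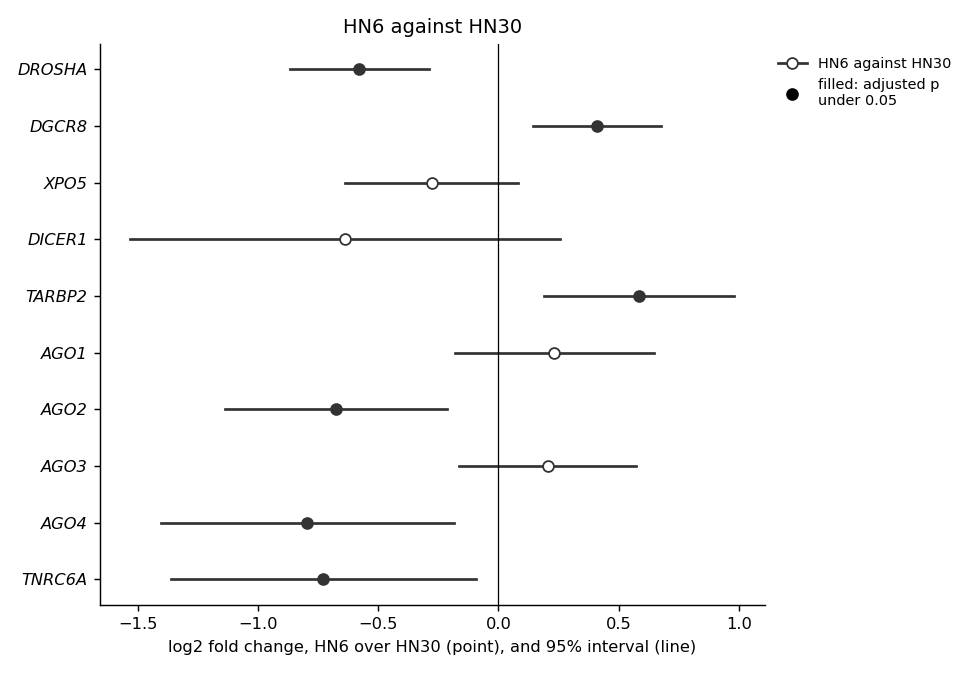
Log2 fold change of HN6 over HN30 (horizontal axis) for each gene (vertical axis), with the siRNA as a term of the fit. Points are fitted values and lines 95% intervals, and filled points passed an adjusted p of 0.05. DROSHA, AGO2, AGO4 and TNRC6A lie left of 0 (lower in HN6), DGCR8 and TARBP2 right of it.

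How far the repeats of a condition lay apart differed from gene to gene and set what could be seen. The biological coefficient of variation was lowest for DGCR8 (0.190, percentile 8.28 of all genes) and DROSHA (0.199, percentile 13.1) and highest for DICER1 (0.475, percentile 88.8) and TNRC6A (0.371, percentile 75.3). Over the 6 conditions the repeats of DROSHA, DGCR8, AGO1, AGO3, TARBP2 and XPO5 were never more than 2-fold apart. TNRC6A was 2-fold or more apart in HN30 with NC, where repeat 2 was higher by 1.81 on the log2 scale, and in HN30 with siFAT1-2, by 1.00. DICER1 in HN6 with NC, AGO4 in HN6 with siFAT1-2 and AGO2 in HN30 with NC were the other cases. AGO1 and AGO2 were higher in repeat 2 than in repeat 1 in 6 of 6 conditions, by up to 0.69 and 1.02 on the log2 scale, an arrangement found in 4.39% of all genes. The repeats of siFAT1-1 were the closest of all, with 4.23% (HN6) and 3.81% (HN30) of genes more than 2-fold apart, beside 23.0% and 11.8% for NC and 18.8% and 14.2% for siFAT1-2.

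**Figure D5:**
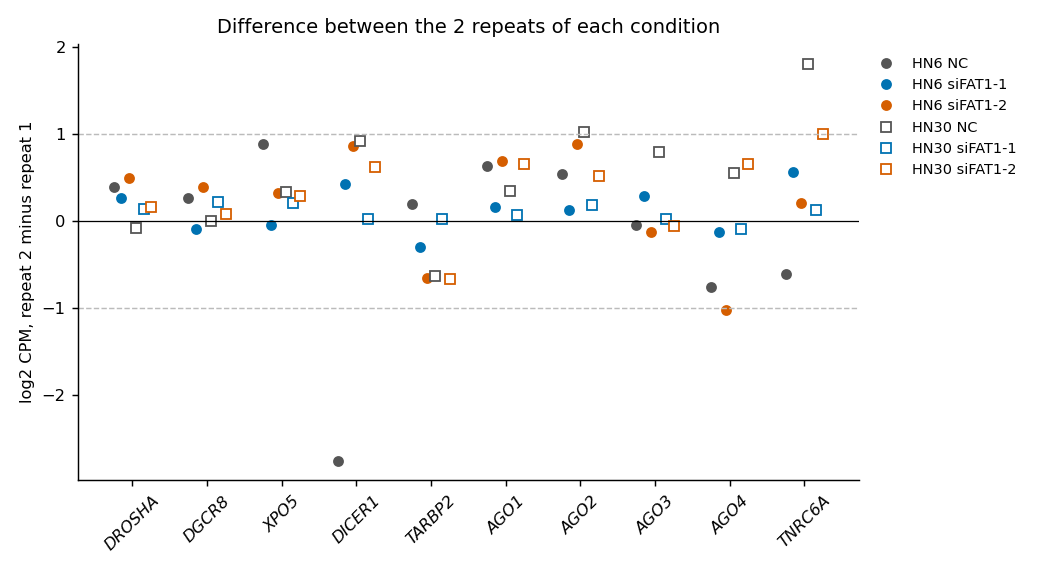
Log2 CPM of repeat 2 minus repeat 1 (vertical axis) for each gene (horizontal axis) in the 6 conditions, with filled circles for HN6, open squares for HN30 and colour for the siRNA. Dashed lines mark 2-fold. DICER1 in HN6 NC lies lowest, at -2.76, and TNRC6A in HN30 NC highest, at 1.81, while all AGO1 and AGO2 points lie above 0.

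The low DICER1 library was not low for all members. In HN6 NC, repeat 2 was below repeat 1 by 2.76 on the log2 scale for DICER1, a difference larger than that of 96.9% of genes, and also lower for AGO4 and TNRC6A, whereas XPO5 was higher by 0.89, AGO1 by 0.63 and AGO2 by 0.54. The genes most like DICER1, by the Pearson correlation of log2 CPM centred within each line over 12 libraries, were MBNL1 (r = 0.989), MIA2 (r = 0.987) and ZBTB21 (r = 0.987). They shared its low library: MBNL1 stood at 137 and 16.5 CPM in the HN6 NC repeats, MIA2 at 38.9 and 9.39 and ZBTB21 at 38.8 and 8.32, each with the prior count of 2 that was added before the logarithm. Among the genes most like AGO2 were SLC43A3 (r = 0.965) and BCL3 (r = 0.945). These libraries share lines and repeat numbers, and the correlations are descriptions. Among members the highest correlation was between AGO3 and TNRC6A (r = 0.80) and the lowest between AGO2 and TARBP2 (r = -0.75).

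Other genes of the pathway were read from lists of biogenesis cofactors, silencing effectors and Argonaute loading and turnover factors. In KD against NC none of the 23, 35 and 17 tested genes of these lists was called by edgeR, with 1, 7 and 1 at an unadjusted p under 0.05, and the smallest p belonged to SAFB2 (log2 fold change -0.81), CNOT3 (-0.62) and DNAJA2 (0.38). DESeq2 called 2 of the silencing effectors and none of the other lists (background 4.61%), and limma-voom called none (background 0.691%). SAFB2 and CNOT3 also had the smallest p of their lists in each line, with log2 fold changes of -0.90 and -0.63 in HN6 and -0.84 and -0.62 in HN30, beside EIF1AX (0.74) in HN6 and DNAJA2 (0.44) in HN30, none of them called. For the difference in response between the lines the smallest p belonged to ADARB1 (-0.68), DDX6 (0.71) and IPO8 (0.63), with an adjusted p of 0.974 each. With siFAT1-1 against NC, 3 of 23 biogenesis cofactors were lower and none higher, beside 3.25% of all genes called. SAFB2, an RNA-binding cofactor of the Microprocessor, was at 0.420 of NC (log2 fold change -1.25 ± 0.19, adjusted p = 0.00486), with 29.8 and 35.4 CPM in HN6 against 60.5 and 79.9 for NC and 27.5 and 29.1 in HN30 against 74.9 and 76.2. SRRT, which links capped primary transcripts to the Microprocessor, was at -0.69 and the splicing factor SRSF3 at -0.52. With the repeat as a block, 1 of these 3 calls was left, SAFB2. It was also called in each of the 12 fits that left out a library, while SRRT was called in 4 of these and SRSF3 in 3. DESeq2 called 5 of the 23 cofactors (background 8.76%) and limma-voom 3 (background 3.98%). With siFAT1-2 against NC no biogenesis cofactor was called by edgeR, DESeq2 or limma-voom (background 11.8%, 19.4% and 13.8%). In edgeR 3 had an unadjusted p under 0.05 (background 28.9%), and SAFB2 had the smallest p (log2 fold change -0.47, adjusted p = 0.117).

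Of the silencing effectors, 4 of 35 were lower with siFAT1-1 and none higher, again beside 3.25% of all genes: PABPC1 (-0.97), the poly(A)-binding protein that TNRC6A contacts, the cap-binding repressor EIF4E2 (-0.78), the deadenylase subunit CNOT3 (-0.68) and the decapping scaffold EDC4 (-0.62). With the repeat as a block 2 of these were left, PABPC1 and EIF4E2. DESeq2 called 4 of the 35 effectors (background 8.76%) and limma-voom 4 (background 3.98%). Of the 12 fits without a library, PABPC1 was called in 12, EIF4E2 in 9, CNOT3 in 5 and EDC4 in 3. With siFAT1-2, 3 of 35 were lower, LIMD1 (-0.80), CNOT9 (-0.70) and CNOT3 (-0.56), and 2 were higher, FXR1 (1.04) and CNOT7 (0.61). These 5 of 35 stand beside 11.8% of all genes. FXR1 was called in 12 of 12 fits without a library and CNOT9 in 10, but LIMD1 and CNOT7 in 2 each and CNOT3 in 1, and CNOT3 was also lost with the repeat as a block (adjusted p = 0.0551). The median log2 fold change of this list was -0.10 with siFAT1-1 and -0.17 with siFAT1-2. Of the loading and turnover factors 2 of 17 were higher with siFAT1-2, TSNAX (0.81), a subunit of the C3PO nuclease, and the translation factor EIF1AX (0.76), beside 11.8% of all genes. They were called in 4 and 6 of the 12 fits without a library. None was called with siFAT1-1, where ANKRD52 had the smallest p (log2 fold change 0.85, adjusted p = 0.208) and 2 genes had an unadjusted p under 0.05 (background 19.0%). DESeq2 (background 8.76%) and limma-voom (background 3.98%) called none of them either.

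Between the siRNAs each list held calls. Lower with siFAT1-1 than with siFAT1-2 were 5 of 23 biogenesis cofactors: LIN28B (-1.86), which blocks the maturation of let-7, KHSRP (-0.81), SAFB2 (-0.78), SRRT (-0.70) and SRSF3 (-0.42). Of the silencing effectors 4 were lower, PABPC1 (-1.12), CNOT7 (-0.69), GIGYF2 (-0.54) and EIF4E2 (-0.53), and 3 were higher, LIMD1 (0.93), CNOT6 (0.82) and MOV10 (0.68). Of the loading and turnover factors ANKRD52 (1.54), a subunit of the phosphatase that acts on Argonaute, was higher and HSPA4 (-0.79), EIF1AX (-0.72) and TSN (-0.50) were lower. The shares, 5 of 23, 7 of 35 and 4 of 17, stand beside 17.4% of all genes and were not tested against it. Leaving out 1 library moved these counts to between 0 and 8, 1 and 13, and 1 and 6. Without HN30 siFAT1-1 repeat 1 they were 0, 1 and 1, and without HN6 NC repeat 2 they were 8, 13 and 6. PABPC1 and ANKRD52 were called in all 12 such fits, and SRSF3 in 2. With the repeat as a block CNOT6 (adjusted p = 0.0524) and TSN (adjusted p = 0.0508) were lost.

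Between the lines, 12 of 23 biogenesis cofactors, 20 of 35 silencing effectors and 7 of 17 loading and turnover factors were called, beside 56.9% of all genes. PRKRA, which like TARBP2 is a partner of DICER1, was higher in HN6 by 1.57 ± 0.10 on the log2 scale, with 92.5 ± 0.0588 CPM (SD, n = 2) with NC in HN6 and 32.0 ± 0.318 in HN30. ERH (0.71) was higher in HN6 as well, and the RNA editing enzyme ADARB1 (-2.20) and the nucleotidyltransferase TENT2 (-1.21) were lower. Of the effectors, WTIP had few counts, 47 to 129 per HN6 library and 6 to 29 per HN30 library. WTIP (2.28) and the helicase MOV10 (1.43) were the effectors with the highest log2 fold change. The lowest were PAN3 (-1.70), of the PAN2-PAN3 deadenylase, and the decapping cofactor DCP1B, which had no count in 5 of the 6 HN6 libraries and 2 counts in the other, beside 39 to 80 counts in each HN30 library. The Hsp90 cochaperones AHSA1 (1.68) and STIP1 (0.97) were higher, and TSNAX (-0.85) and HSPA4 (-0.69) lower in HN6. PABPC1, ERH, SRSF3 and EIF1AX have close copies elsewhere in the genome, so their counts are less certain.

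The PIWI proteins, the germline relatives of the Argonautes, were near or at 0. PIWIL3 had no count in any library and PIWIL1 had 1 and 2 counts in the HN30 NC libraries and none elsewhere. PIWIL2 stood at 1.30 to 2.35 CPM in HN6 and 0.170 to 0.636 in HN30, and PIWIL4 at 0.423 to 1.34 in HN6 and at no more than 0.1496 in HN30. Both were called between the lines, but with at most 104 counts in a library, beside 391 or more for every Argonaute.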

How the data were processed

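RNA of 12 libraries was sequenced as 150-bp paired ends. The authors aligned to hg38 after a quality filter that also took out duplicate fragments and reads holding N runs. The submitters' processing notes name HISAT2 and featureCounts, and the annotation and strand setting are not given in the sources used here. The deposited values are raw counts per gene. From them, log2 fold changes were computed with edgeR 4.0.16 (TMM, factors 0.897 to 1.06, filterByExpr at 10 counts, then glmQLFit with glmQLFTest) on 13887 genes, with Benjamini-Hochberg adjustment over all genes. KD against NC was fitted with cell line and KD as terms, so differences between the siRNAs entered its spread. Comparisons of single siRNAs and of the lines had cell line and siRNA as terms. Contrasts within a line and of the response used a model of the conditions. CPM are TMM-scaled. Log2 CPM used a prior count of 2, and ratios of 2 genes over all pairs a pseudocount of 0.5. Lengths and coordinates are from GENCODE 44 on GRCh38. Intervals are 95% intervals of the fit. limma 3.58.1 and DESeq2 1.42.0 gave alternatives (R 4.3.3), and Python 3.11.15 (pandas 2.3.3, numpy 2.4.6, scipy 1.17.1; figures with matplotlib 3.10.9) the summaries. The steps were tested on simulated data.

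The members and lists were chosen with earlier results of these data known. Named genes were all members, FAT1, the called genes of the lists in comparisons of siRNA or knockdown, or the gene with the smallest p of a list where none was called, the 2 highest and 2 lowest log2 fold changes called between the lines per list, and the 3 genes most like AGO2 and DICER1. Any other was chosen after its values were seen, and 1 gene that the rule names and 1 marker are not reported here. The titles number the repeats as times and name no date or batch. Read as separate rounds, these numbers pair same-numbered libraries within a line. The deviations of same-numbered libraries correlated across genes at 0.0778 to 0.242 in HN6 and -0.0337 to 0.405 in HN30, and a fit with the repeat as a block was run beside each test. Depth was 26430049 to 47639010 counts per library, with 2 repeats per condition.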

Additional observations from a re-analysis of the deposited data

How the results depend on the processing

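None of the 11 log2 fold changes of single members with an unadjusted p under 0.05 over both lines changed direction under an alternative. The DESeq2 Wald test called 1 member for KD against NC and 2 for siFAT1-2 against NC in place of 0, and limma-voom 1 for siFAT1-2 against NC, where these tools called 4.61%, 19.4% and 13.8% of all genes and edgeR 0.547% and 11.8%. With NC libraries only, 0 members were called between HN6 and HN30 in place of 6, and 11.4% of all genes in place of 56.9%. With the longest coding transcript as length, 2 of 10 members kept their place in the order of levels. Another 43 member counts under other settings stayed within 1.5 times. The main count was 0 in every comparison except HN6 against HN30, and 0 beside 0 says little about stability. Leaving out 1 library at a time gave 0 to 0 calls for KD against NC, siFAT1-1 against NC and KD against NC in HN30, 0 to 1 for siFAT1-2 against NC, siFAT1-1 against siFAT1-2, KD against NC in HN6 and the response of HN6 minus HN30, and 3 to 6 for HN6 against HN30. The replicate block left the number of called members at 6 between the lines and at 0 elsewhere. Its adjusted p for DGCR8 was 0.217 for KD and 0.0615 for siFAT1-2.

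Over all genes the count called for KD against NC was 76, with 640 by the DESeq2 Wald test, 44 with the replicate block, 4 with no cell line term and 12 to 61 with 1 library left out. Calls of TNRC6A between the lines were lost in 9 of 12 fits without a library and those of AGO4 in 7 of 12. Biogenesis cofactors called with siFAT1-1 were 1 to 4, silencing effectors 1 to 4 with siFAT1-1 and 1 to 6 with siFAT1-2, and loading factors 0 to 3 with siFAT1-2, and between the siRNAs 0 to 8, 1 to 13 and 1 to 6, when 1 library was left out. The causes were not tested.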
